A study of Arabidopsis thaliana with 12 samples.

Results

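The genes described are 42 nuclear genes of the thylakoid photosystems of Arabidopsis thaliana, taken from the count tables by their locus identifiers. They comprise 6 LHCA genes for the antenna of photosystem I, 14 LHCB genes for the antenna of photosystem II, 12 PSA genes for photosystem I subunits and 10 PSB genes for photosystem II subunits, out of 34262 identifiers listed. All 42 passed the filter on low counts, as did 18698 genes in all. The samples are RNA libraries of leaf 13 from rosettes aged 5 weeks, in 4 groups of 3 replicates, each replicate a pool of 2 plants. The groups were isi1-2 wounded, isi1-2 unwounded, Col-0 wild type (WT) wounded and WT unwounded. In wounded plants, 50 to 60% of the lamina of leaf 8 was crushed and the undamaged leaf 13 was taken 1 h later. The mutant isi1-2 is a single SALK insertion line (SALK_014032) of ISI1 in the Col-0 background, so that the line and the gene cannot be told apart. Plants grew under 10 h of light and 14 h of darkness.

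In the thylakoid membrane, LHCA and LHCB proteins bind chlorophyll a and b and pass the absorbed energy to the reaction centres. LHCB1, LHCB2 and LHCB3 form the trimers of the photosystem II antenna. LHCB4, LHCB5 and LHCB6 are the monomeric antenna proteins that link the trimers to the photosystem II core, and the LHCA proteins form a belt around photosystem I. The core of each photosystem is mostly encoded in the plastid, whereas the antenna and many peripheral subunits are encoded in the nucleus, often by several gene copies. Transcripts of the nuclear antenna genes are known to respond to light, the circadian clock, sugars and the GOLDEN2-LIKE (GLK) transcription factors.

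The copies of LHCB1 and LHCB2 carried the widest differences in the response described below, and the 250 bases upstream of the annotated start of 6 of them are shown for that reason. They were read from RefSeq TAIR10.1, whose nuclear chromosomes are those of TAIR10, and are written 5′ to 3′ on the gene's strand. Capitals mark matches, on either strand, to 5 motifs: CCAATC (reported for GLK binding), CACGTG (G-box), GATAAG (I-box), AAAAATCT (CCA1-type element) and AAAATATCT (evening element). The windows lie at chr1:10475970-10476219 (minus strand), chr1:10473503-10473752 (minus strand) and chr1:10477635-10477884 (plus strand) for LHCB1.1 (AT1G29920), LHCB1.2 (AT1G29910) and LHCB1.3 (AT1G29930). Those of LHCB2.1 (AT2G05100), LHCB2.2 (AT2G05070) and LHCB2.3 (AT3G27690) lie at chr2:1824481-1824730 (minus strand), chr2:1800473-1800722 (minus strand) and chr3:10255656-10255905 (plus strand). None of the 6 windows overlaps another annotated gene.
LHCB1.1: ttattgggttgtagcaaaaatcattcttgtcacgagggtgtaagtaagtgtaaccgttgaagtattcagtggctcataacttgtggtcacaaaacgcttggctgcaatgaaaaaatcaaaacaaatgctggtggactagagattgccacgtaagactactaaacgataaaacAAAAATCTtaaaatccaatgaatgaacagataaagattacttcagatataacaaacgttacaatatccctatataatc
LHCB1.2: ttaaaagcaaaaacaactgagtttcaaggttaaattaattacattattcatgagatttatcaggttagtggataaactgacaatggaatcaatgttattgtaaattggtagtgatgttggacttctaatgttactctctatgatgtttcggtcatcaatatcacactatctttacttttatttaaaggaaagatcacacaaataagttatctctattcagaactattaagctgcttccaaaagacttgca
LHCB1.3: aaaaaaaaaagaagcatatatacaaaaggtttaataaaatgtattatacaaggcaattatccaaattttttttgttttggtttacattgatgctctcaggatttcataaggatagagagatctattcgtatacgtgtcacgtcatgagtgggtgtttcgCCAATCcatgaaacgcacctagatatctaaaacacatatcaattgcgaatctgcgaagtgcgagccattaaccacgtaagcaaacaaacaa
LHCB2.1: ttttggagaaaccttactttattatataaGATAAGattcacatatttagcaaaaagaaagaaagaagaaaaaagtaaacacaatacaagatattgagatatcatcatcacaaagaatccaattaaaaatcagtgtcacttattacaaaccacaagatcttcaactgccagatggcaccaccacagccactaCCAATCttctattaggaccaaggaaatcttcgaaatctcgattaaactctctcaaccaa
LHCB2.2: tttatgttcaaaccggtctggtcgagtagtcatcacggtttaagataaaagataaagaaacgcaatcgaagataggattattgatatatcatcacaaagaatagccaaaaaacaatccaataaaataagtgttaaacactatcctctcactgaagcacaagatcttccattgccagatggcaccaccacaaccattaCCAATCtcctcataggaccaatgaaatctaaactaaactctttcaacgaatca
LHCB2.3: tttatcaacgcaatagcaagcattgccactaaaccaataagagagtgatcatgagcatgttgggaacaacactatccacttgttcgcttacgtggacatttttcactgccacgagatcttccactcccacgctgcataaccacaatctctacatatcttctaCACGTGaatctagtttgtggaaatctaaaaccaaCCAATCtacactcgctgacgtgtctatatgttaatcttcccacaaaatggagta

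The 3 LHCB2 windows each held CCAATC between 53 and 59 bases before the start, and LHCB1.3 held it 91 bases before the start. LHCB2.3 also held a G-box at 88 bases and LHCB2.1 an I-box at 221 bases before the start. LHCB1.1 held a CCA1-type element at 78 bases before the start, and LHCB1.2 matched none of the 5 motifs in this window. Over all 42 windows, CCAATC was found in 11 (26.2%), of which 7 belonged to LHCB, 3 to LHCA, 1 to PSB and 0 to PSA genes, against 10.2% of 27443 windows of the same length. The G-box was found in 8 (19%) against 6.49% of all windows, the I-box in 9 (21.4%) against 12.3%, the CCA1-type element in 5 (11.9%) against 6.69% and the evening element in 1 (2.38%) against 2.36%. A match describes letters in a window and is no evidence of binding.

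Each library held between 23307790 and 30747778 counts over genes. Transcripts of ISI1 gave 4, 1 and 1 counts in wounded isi1-2, 1 count in each unwounded isi1-2 library, 253, 337 and 315 in wounded WT, and 269, 254 and 270 in unwounded WT. JAZ10, a jasmonate-responsive repressor used here as a wound marker, gave 9720 to 10752 counts in wounded isi1-2, 25 to 37 in unwounded isi1-2, 6234 to 10462 in wounded WT, and 28 to 31 in unwounded WT. These counts are not scaled to library size, and scaled values of JAZ10 are compared between genotypes below. Replicate 1 of wounded WT stood apart from its 2 group mates, with a chi-square per degree of freedom of 24.2 and 15.3 over genes, against 4.29 to 11.1 for the other pairs of replicates. It also had the lowest JAZ10 count of the wounded libraries. Of the markers for organs other than the leaf, 2 of 3 root markers were at 0 in all libraries, and the 3 flower and 1 seed markers were near 0.

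Wounding of leaf 8 was followed by lower transcript levels of many antenna genes in leaf 13 within 1 h, in both genotypes. Called here means a Benjamini-Hochberg adjusted p under 0.05 in edgeR's quasi-likelihood test over all 18698 genes. In isi1-2, 21 of the 42 genes (50%) were called lower and 0 higher after wounding, where 25.7% of all genes tested were called lower and 50.9% in either direction. In WT, 19 (45.2%) were called lower and 1 higher, against 23% of all genes lower and 46.9% in either direction. The LHCB genes gave more of these calls than any other class, with 10 of 14 genes lower in isi1-2 and 9 of 14 in WT. Of the LHCA genes, 3 of 6 were lower in each genotype. Of the PSB genes, 5 of 10 were lower in isi1-2 and 3 of 10 in WT, and of the PSA genes 3 of 12 in isi1-2 and 4 of 12 in WT. The shares of PSA genes called lower, 25% in isi1-2 and 33.3% in WT, and of PSB genes in WT, 30%, were near those of all genes. In leaf RNA, fewer cells of a type and less RNA per cell cannot be told apart.

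The median log2 fold change on wounding was -0.43 for LHCB in isi1-2 and -0.34 in WT. It was -0.17 in both genotypes for LHCA, -0.16 in isi1-2 and -0.11 in WT for PSB, and -0.08 in isi1-2 and -0.11 in WT for PSA, whereas the median over all genes was 0.00 in both. Scaling by total counts alone moved the median of all genes by -0.09 in isi1-2 and -0.08 in WT and the medians of the classes with it. A total of 17 genes were called lower in both genotypes, which is 17 of the 21 called lower in isi1-2 and 17 of the 19 called lower in WT, and 19% of all genes tested were lower in both. These were LHCA1, LHCA3, LHCB1.1, LHCB1.2, LHCB1.4, LHCB2.1, LHCB2.2, LHCB2.3, LHCB3, LHCB4.2, LHCB6, PSAD1, PSAD2, PSAH2, PSBO2, PSBS and PSBY. A further 7 genes were called in 1 genotype only, which is not a test of a difference between genotypes, and 18 in neither. Counting genes whose 3 wounded libraries did not overlap the 3 unwounded ones, 22 were lower and 1 higher in isi1-2, against 29.8% of all genes in each direction, and 27 were lower and 1 higher in WT, against 27.9% lower and 27.8% higher.

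**Figure D1:**
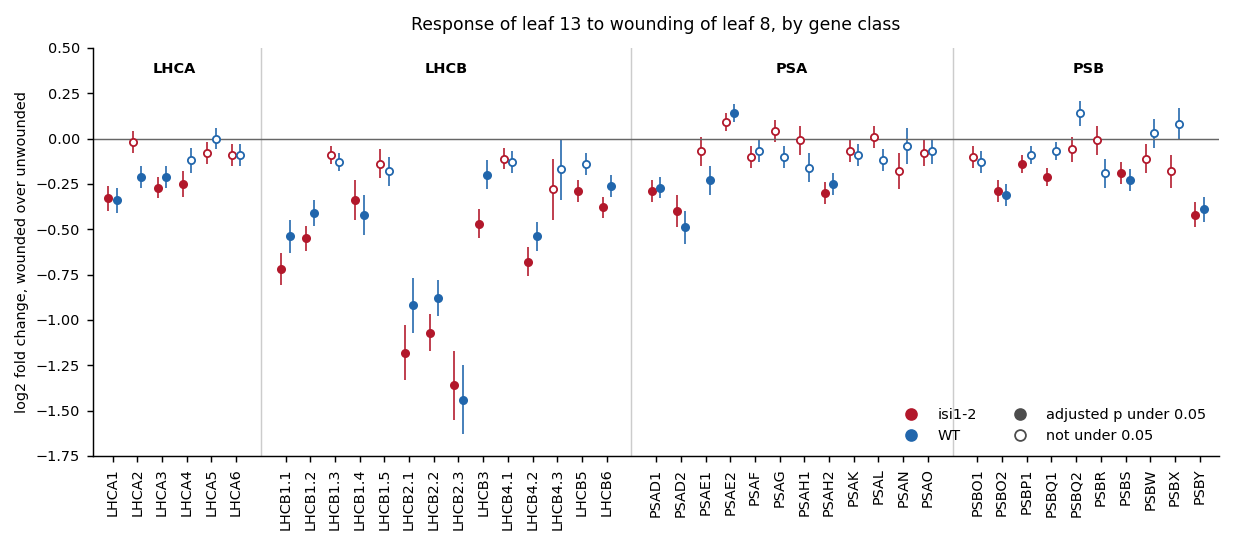
Log2 fold change of each of the 42 genes in leaf 13, wounded over unwounded, by class (x axis: gene; y axis: log2 fold change from edgeR; bars: SE; 3 replicates per group; isi1-2 red and left, WT blue and right; filled symbols: adjusted p under 0.05). The LHCB2 genes, at -1.36 to -1.07 in isi1-2 and -1.44 to -0.88 in WT, lie below all other genes, and most PSA genes lie near 0.

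The LHCB2 genes, whose protein is the main target of the kinase STN7 in state transitions, had the lowest fold changes of the 42 in both genotypes. LHCB2.1 had 1791, 1308 and 1154 counts-per-million (CPM, scaled by TMM) in wounded isi1-2, 3152, 3207 and 3273 in unwounded isi1-2, 2124, 1597 and 1667 in wounded WT, and 3336, 3372 and 3489 in unwounded WT. Every wounded library was below every unwounded one, and within each genotype replicate 1 was the highest wounded library. LHCB2.1 was thus 2.26-fold lower in wounded than in unwounded isi1-2 (log2 fold change -1.18, SE 0.15, adjusted p = 4.44e-05) and 1.89-fold lower in wounded than in unwounded WT (-0.92, SE 0.15, adjusted p = 0.000332).

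LHCB2.2 had 1777, 1384 and 1232 CPM in wounded isi1-2, 3003, 3106 and 3137 in unwounded isi1-2, 1991, 1681 and 1793 in wounded WT, and 3306, 3359 and 3425 in unwounded WT. The order of the groups was that of LHCB2.1, with no overlap between wounded and unwounded libraries. It was 2.1-fold lower after wounding in isi1-2 (log2 fold change -1.07, SE 0.10, adjusted p = 1.12e-06) and 1.85-fold lower in WT (-0.88, SE 0.10, adjusted p = 9.22e-06). LHCB2.1 and LHCB2.2 are close copies: 0.239% of the 150-base windows of LHCB2.1 and 0.302% of those of LHCB2.2 occur in the other gene, and 15.3% of the 75-base windows of LHCB2.1 and 19.1% of those of LHCB2.2 occur elsewhere in annotated genes. Reads that fit both copies were not counted to either, and their split between the copies is uncertain to that extent.

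LHCB2.3, the third copy, had 618, 476 and 344 CPM in wounded isi1-2, 1140, 1328 and 1214 in unwounded isi1-2, 675, 507 and 614 in wounded WT, and 1534, 1657 and 1695 in unwounded WT. It was 2.56-fold lower after wounding in isi1-2 (log2 fold change -1.36, SE 0.19, adjusted p = 0.000143) and 2.72-fold lower in WT (-1.44, SE 0.19, adjusted p = 0.000109). These 3 genes in isi1-2 and LHCB2.3 in WT were the genes of the 42 that were called at least 2-fold lower, against 6.38% and 5.59% of all genes tested in isi1-2 and WT. In unwounded plants the isi1-2 libraries of LHCB2.3 were all below the WT libraries, but the difference was not called (log2 fold change -0.41, SE 0.18, adjusted p = 0.545).

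The 5 LHCB1 copies, which encode the most abundant antenna protein of the trimers, differed among themselves. LHCB1.1, LHCB1.2 and LHCB1.3 lie side by side at chr1:10472280-10479114, and LHCB1.4 (AT2G34430) and LHCB1.5 (AT2G34420) at chr2:14522524-14525918. LHCB1.3 had the highest transcript level per exon length of the 42 genes in each group, with 21147 CPM per kb in wounded isi1-2, 22567 in unwounded isi1-2, 21405 in wounded WT and 23487 in unwounded WT. Its 12 libraries held 27421, 26041 and 24572 CPM in wounded isi1-2, 26846, 28166 and 28261 in unwounded isi1-2, 26467, 26180 and 26339 in wounded WT, and 27853, 29272 and 29542 in unwounded WT. In isi1-2 the wounded and unwounded libraries overlapped, and in WT they did not. The log2 fold change on wounding did not pass the threshold in either genotype (isi1-2: -0.09, SE 0.05, adjusted p = 0.158; WT: -0.13, SE 0.05, adjusted p = 0.0511). In WT it passed without replicate 1 of unwounded WT (adjusted p = 0.0434) or without replicate 1 (0.0315) or 3 (0.03) of wounded isi1-2.

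LHCB1.1 and LHCB1.2, the neighbours of LHCB1.3, fell in both genotypes. LHCB1.1 had 7166, 6164 and 5180 CPM in wounded isi1-2, 10027, 10505 and 9918 in unwounded isi1-2, 7571, 7191 and 7255 in wounded WT, and 9696, 11328 and 11055 in unwounded WT. All wounded libraries were below all unwounded ones, and all wounded isi1-2 libraries were below the wounded WT libraries. The log2 fold change on wounding was -0.72 in isi1-2 (SE 0.09, adjusted p = 1.18e-05) and -0.54 in WT (SE 0.09, adjusted p = 0.000194). LHCB1.2 had 8160, 7283 and 6717 CPM in wounded isi1-2, 10521, 10793 and 11031 in unwounded isi1-2, 8987, 8248 and 8372 in wounded WT, and 11082, 11223 and 11731 in unwounded WT. It showed the same lack of overlap, with log2 fold changes of -0.55 in isi1-2 (SE 0.07, adjusted p = 4.13e-06) and -0.41 in WT (SE 0.07, adjusted p = 9.21e-05).

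LHCB1.4 had 5221, 4218 and 4060 CPM in wounded isi1-2, 5726, 5782 and 5617 in unwounded isi1-2, 5194, 3959 and 4173 in wounded WT, and 5499, 6041 and 6310 in unwounded WT. Replicate 1 was again the highest wounded library in both genotypes. The gene was lower after wounding in isi1-2 (log2 fold change -0.34, SE 0.11, adjusted p = 0.0147), where the call was lost without replicate 2 (-0.30, adjusted p = 0.0631) or replicate 3 (-0.27, adjusted p = 0.071) of wounded isi1-2. It was also lower in WT (-0.42, SE 0.11, adjusted p = 0.00468). LHCB1.5 had 10719, 9063 and 9229 CPM in wounded isi1-2, 10366, 10596 and 11113 in unwounded isi1-2, 11003, 9227 and 9582 in wounded WT, and 10903, 11020 and 11833 in unwounded WT. The groups overlapped, and LHCB1.5 was called in neither genotype (isi1-2: log2 fold change -0.14, SE 0.08, adjusted p = 0.121; WT: -0.18, SE 0.08, adjusted p = 0.0623).

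**Figure D2:**
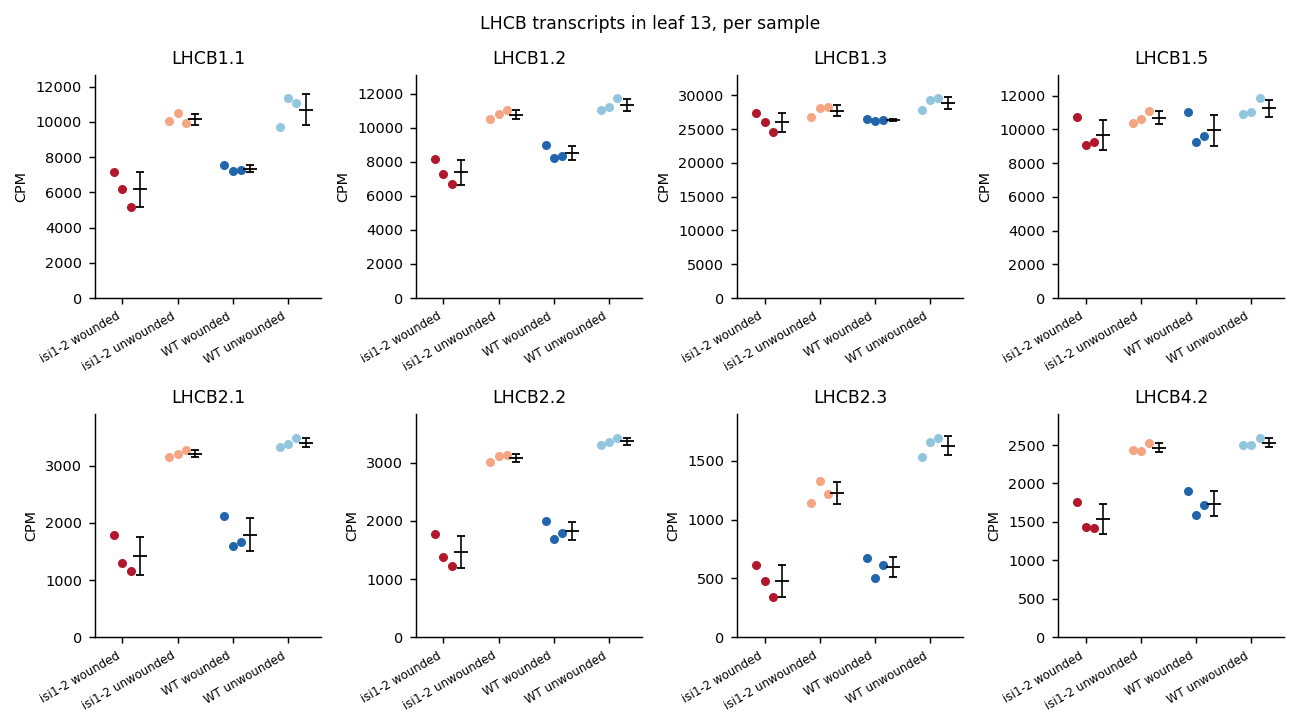
TMM-scaled CPM of 8 LHCB genes in each of the 12 libraries (x axis: group; y axis: CPM from 0; points: replicates 1 to 3 from left to right; bars: mean and SD, n = 3). Wounded libraries of LHCB2.1, LHCB2.2, LHCB2.3, LHCB1.1, LHCB1.2 and LHCB4.2 lie below all unwounded libraries, whereas those of LHCB1.5 overlap them in both genotypes and those of LHCB1.3 in isi1-2.

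The composition of the trimer transcripts differed accordingly. The summed LHCB2 counts over the summed LHCB1 counts gave ratios of 0.0713, 0.06 and 0.0549 in wounded isi1-2, 0.115, 0.116 and 0.116 in unwounded isi1-2, 0.0809, 0.0691 and 0.0731 in wounded WT, and 0.126, 0.122 and 0.122 in unwounded WT. The wounded libraries were below the unwounded ones in both genotypes without overlap, and the unwounded isi1-2 libraries were below those of unwounded WT. LHCB1.3 took 46.7, 49.3 and 49.4% of LHCB1 counts in wounded isi1-2, 42.3, 42.8 and 42.9% in unwounded isi1-2, 44.7, 47.8 and 47.3% in wounded WT, and 42.8, 42.5 and 41.9% in unwounded WT. Its share was thus higher in every wounded library than in any unwounded one. The share of LHCB2.3 among LHCB2 counts was 12.6 to 15% in wounded isi1-2, 15.6 to 17.4% in unwounded isi1-2, 13.4 to 15.1% in wounded WT and 18.8 to 19.8% in unwounded WT. These ratios are within a library and carry no scaling factor, and they are given without a test.

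Among the other LHCB genes, LHCB3 (AT5G54270), the third trimer subunit, had 5258, 4444 and 4645 CPM in wounded isi1-2, 6972, 6649 and 6263 in unwounded isi1-2, 6044, 5007 and 5303 in wounded WT, and 6078, 6294 and 6464 in unwounded WT. It was lower after wounding in isi1-2 (log2 fold change -0.47, SE 0.08, adjusted p = 7.75e-05) and in WT (-0.20, SE 0.08, adjusted p = 0.0372). In WT the call was lost without any one of 5 libraries, which were replicates 2 and 3 of wounded WT, replicates 2 and 3 of unwounded WT and replicate 2 of unwounded isi1-2, with adjusted p-values of 0.0527 to 0.164. The interaction term, which is negative where the response in isi1-2 is the lower one, was -0.27 (SE 0.11, unadjusted p = 0.0247, adjusted p = 0.398), the lowest adjusted p of the 42 genes for this term.

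Of the 3 copies of LHCB4, a monomeric antenna protein, LHCB4.2 (AT3G08940) had 1765, 1440 and 1417 CPM in wounded isi1-2, 2440, 2424 and 2532 in unwounded isi1-2, 1903, 1590 and 1724 in wounded WT, and 2501, 2496 and 2594 in unwounded WT. It was lower after wounding in isi1-2 (log2 fold change -0.68, SE 0.08, adjusted p = 3.18e-06) and in WT (-0.54, SE 0.08, adjusted p = 4.05e-05). LHCB4.1 (AT5G01530), the more abundant copy, had 5538, 5034 and 4808 CPM in wounded isi1-2, 5307, 5560 and 5701 in unwounded isi1-2, 5088, 4885 and 4927 in wounded WT, and 5313, 5653 and 5390 in unwounded WT. It was called in neither genotype (isi1-2: -0.11, SE 0.06, adjusted p = 0.144; WT: -0.13, SE 0.06, adjusted p = 0.0744). LHCB4.2 took 24.1, 22.2 and 22.7% of the LHCB4 counts in wounded isi1-2, 31.4, 30.2 and 30.7% in unwounded isi1-2, 27.1, 24.5 and 25.8% in wounded WT, and 31.9, 30.5 and 32.4% in unwounded WT. The share was lower in all wounded libraries, and lower in wounded isi1-2 than in wounded WT without overlap. LHCB4.3 (AT2G40100), the least abundant of the 42 genes per exon length, had 26.2, 21.8 and 24.3 CPM in wounded isi1-2, 30.7, 30.2 and 26.8 in unwounded isi1-2, 32, 19.1 and 21.7 in wounded WT, and 25.6, 31.8 and 24.1 in unwounded WT. It was not called (isi1-2: -0.28, SE 0.17, adjusted p = 0.196; WT: -0.17, SE 0.17, adjusted p = 0.451). Replicate 1 of wounded WT decided this: without it LHCB4.3 was called lower in WT (-0.42, adjusted p = 0.00605) and in isi1-2 (-0.27, adjusted p = 0.0311).

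LHCB5 (AT4G10340) had 5537 to 6426 CPM in wounded isi1-2, 6859 to 7465 in unwounded isi1-2, 6244 to 6932 in wounded WT and 7001 to 7210 in unwounded WT. It was called lower in isi1-2 (log2 fold change -0.29, SE 0.06, adjusted p = 0.0014), and its value in WT did not pass (-0.14, SE 0.06, adjusted p = 0.093; -0.19 and 0.0325 without replicate 1 of wounded WT), while the interaction term was -0.15 (SE 0.09, adjusted p = 0.588). LHCB6 (AT1G15820), present in land plants as a linker of trimers, had 3593 to 4162 CPM in wounded isi1-2, 4892 to 5027 in unwounded isi1-2, 3747 to 4263 in wounded WT and 4655 to 4803 in unwounded WT. It was lower in both genotypes (isi1-2: -0.38, SE 0.06, adjusted p = 0.000109; WT: -0.26, SE 0.06, adjusted p = 0.00309).

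The photosystem I antenna changed less than the LHCB2 genes. LHCA1 (AT3G54890), a subunit of the belt, had 6873, 6129 and 5634 CPM in wounded isi1-2, 7630, 7771 and 7948 in unwounded isi1-2, 6980, 6192 and 6498 in wounded WT, and 8224, 8151 and 8496 in unwounded WT. Wounded and unwounded libraries did not overlap, and the fold changes were close (isi1-2: log2 fold change -0.33, SE 0.07, adjusted p = 0.000828; WT: -0.34, SE 0.07, adjusted p = 0.00067). LHCA3 (AT1G61520), another subunit of the belt, had 5292, 4766 and 4555 CPM in wounded isi1-2, 5766, 5893 and 5956 in unwounded isi1-2, 5408, 4696 and 5014 in wounded WT, and 5732, 5797 and 5979 in unwounded WT. It was lower, without overlap, in isi1-2 (-0.27, SE 0.06, adjusted p = 0.00236) and in WT (-0.21, SE 0.06, adjusted p = 0.0129), although in WT the call was lost without replicate 2 of wounded WT (-0.16, adjusted p = 0.0698) or replicate 3 of unwounded WT (-0.20, adjusted p = 0.0575).

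LHCA4 (AT3G47470), which pairs with LHCA1, had 6754 to 7738 CPM in wounded isi1-2, 8321 to 8733 in unwounded isi1-2, 7117 to 8325 in wounded WT and 8168 to 8461 in unwounded WT. It was called in isi1-2 (log2 fold change -0.25, SE 0.07, adjusted p = 0.0045) and had a value of -0.12 in WT (SE 0.07, adjusted p = 0.15; -0.18 and 0.0381 without replicate 1 of wounded WT). LHCA2 (AT3G61470) had 4701 to 5141 CPM in wounded isi1-2, 4619 to 5149 in unwounded isi1-2, 4244 to 4822 in wounded WT and 5211 to 5436 in unwounded WT. It was called in WT (-0.21, SE 0.06, adjusted p = 0.0115), though not without replicate 2 of wounded WT (-0.16, adjusted p = 0.0661), and had a value of -0.02 in isi1-2 (SE 0.06, adjusted p = 0.845). The interaction term did not pass the threshold (0.20, SE 0.09, unadjusted p = 0.0445, adjusted p = 0.467). LHCA5 (AT1G45474) and LHCA6 (AT1G19150), which join photosystem I to the NDH complex, were far less abundant. LHCA5 had 189, 183 and 178 CPM in wounded isi1-2, 202, 191 and 189 in unwounded isi1-2, 191, 176 and 176 in wounded WT, and 179, 185 and 180 in unwounded WT. LHCA6 had 181, 168 and 165 CPM in wounded isi1-2, 187, 179 and 179 in unwounded isi1-2, 163, 161 and 148 in wounded WT, and 170, 167 and 164 in unwounded WT. Neither was called in either genotype, with log2 fold changes of -0.09 to 0.00, and only the WT libraries of LHCA6 did not overlap.

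Of the photosystem I subunits, PSAD1, PSAD2 and PSAH2 were called lower in both genotypes. PSAD2 (AT1G03130), 1 of the 2 copies of the subunit that docks ferredoxin, had 1492, 1458 and 1211 CPM in wounded isi1-2, 1675, 1970 and 1833 in unwounded isi1-2, 1491, 1266 and 1466 in wounded WT, and 1898, 2009 and 2032 in unwounded WT. It was lower after wounding in isi1-2 (log2 fold change -0.40, SE 0.09, adjusted p = 0.00102) and in WT (-0.49, SE 0.09, adjusted p = 0.00018). The other copy, PSAD1 (AT4G02770), had 2805, 2683 and 2488 CPM in wounded isi1-2, 3072, 3340 and 3329 in unwounded isi1-2, 2815, 2628 and 2817 in wounded WT, and 3171, 3366 and 3404 in unwounded WT. Again no wounded library reached an unwounded one, and PSAD1 was lower in isi1-2 (-0.29, SE 0.06, adjusted p = 0.000861) and in WT (-0.27, SE 0.06, adjusted p = 0.00178).

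PSAH2 (AT1G52230), a copy of the subunit to which the mobile antenna binds, had 1568, 1474 and 1350 CPM in wounded isi1-2, 1753, 1776 and 1882 in unwounded isi1-2, 1557, 1386 and 1479 in wounded WT, and 1740, 1748 and 1785 in unwounded WT. It was lower in both genotypes without overlap (isi1-2: log2 fold change -0.30, SE 0.06, adjusted p = 0.000876; WT: -0.25, SE 0.06, adjusted p = 0.00357). The other copy, PSAH1 (AT3G16140), had 981, 940 and 844 CPM in wounded isi1-2, 929, 851 and 1004 in unwounded isi1-2, 904, 724 and 852 in wounded WT, and 886, 935 and 951 in unwounded WT. Its groups overlapped and it was not called (isi1-2: -0.01, SE 0.08, adjusted p = 0.932; WT: -0.16, SE 0.08, adjusted p = 0.128), but passed in WT without replicate 1 of wounded WT (-0.23, adjusted p = 0.033). PSAH2 took 61.1 to 61.5% of the PSAH counts in wounded isi1-2, 65.2 to 67.6% in unwounded isi1-2, 63.3 to 65.7% in wounded WT and 65.2 to 66.3% in unwounded WT.

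The copies of PSAE, a stromal subunit next to PSAD, differed in sign in WT. PSAE1 (AT4G28750) had 2485, 2424 and 2068 CPM in wounded isi1-2, 2233, 2396 and 2693 in unwounded isi1-2, 2214, 2105 and 2193 in wounded WT, and 2450, 2580 and 2582 in unwounded WT. The libraries overlapped in isi1-2 (log2 fold change -0.07, SE 0.08, adjusted p = 0.467) and not in WT, where PSAE1 was lower after wounding (-0.23, SE 0.08, adjusted p = 0.0222). PSAE2 (AT2G20260) had 614, 586 and 593 CPM in wounded isi1-2, 561, 556 and 570 in unwounded isi1-2, 614, 604 and 600 in wounded WT, and 557, 520 and 577 in unwounded WT. All wounded libraries were above the unwounded ones. With all 12 libraries it was the only one of the 42 genes called higher, in WT (log2 fold change 0.14, SE 0.05, adjusted p = 0.0461), and had a value of 0.09 in isi1-2 (SE 0.05, adjusted p = 0.186). Both calls hung on single libraries. That of PSAE1 was lost without replicate 2 of wounded WT or without replicate 2 or 3 of unwounded WT (adjusted p = 0.0597 to 0.0716). That of PSAE2 was lost without any one of 9 of the 12 libraries (adjusted p = 0.0511 to 0.18), the exceptions being replicates 1 and 3 of wounded isi1-2 and replicate 3 of unwounded WT. The remaining 7 PSA genes were not called in either genotype. They were PSAF and PSAN, which face plastocyanin, and PSAG, PSAK, PSAH1, PSAL and PSAO, with log2 fold changes of -0.18 to 0.04. Without replicate 3 of unwounded isi1-2, PSAF (-0.16, adjusted p = 0.0425) and PSAN (-0.28, adjusted p = 0.0244) were called lower in isi1-2. PSAG (AT1G55670), a subunit at the edge of photosystem I, had 3519, 3427 and 3303 CPM in wounded isi1-2, 3244, 3262 and 3437 in unwounded isi1-2, 3231, 3016 and 3147 in wounded WT, and 3157, 3351 and 3530 in unwounded WT, with overlap in both genotypes.

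Among the photosystem II genes, PSBY (AT1G67740), for a low-mass membrane protein near the core, had 1115, 1148 and 1041 CPM in wounded isi1-2, 1362, 1503 and 1550 in unwounded isi1-2, 993, 1099 and 1078 in wounded WT, and 1316, 1395 and 1450 in unwounded WT. It was lower in isi1-2 (log2 fold change -0.42, SE 0.07, adjusted p = 6.07e-05) and in WT (-0.39, SE 0.07, adjusted p = 0.000132). PSBO2 (AT3G50820), the less abundant copy of the manganese-stabilising protein of the oxygen-evolving complex, had 1663, 1634 and 1474 CPM in wounded isi1-2, 1837, 2041 and 1972 in unwounded isi1-2, 1640, 1596 and 1693 in wounded WT, and 2027, 2053 and 2049 in unwounded WT. It was lower in both genotypes, with no overlap (isi1-2: -0.29, SE 0.06, adjusted p = 0.000621; WT: -0.31, SE 0.06, adjusted p = 0.000397). PSBO1 (AT5G66570), the more abundant copy, had 6438, 6110 and 5883 CPM in wounded isi1-2, 6265, 6721 and 6791 in unwounded isi1-2, 6073, 5701 and 5978 in wounded WT, and 6349, 6548 and 6576 in unwounded WT. It was not called, although its WT libraries did not overlap (isi1-2: -0.10, SE 0.06, adjusted p = 0.136; WT: -0.13, SE 0.06, adjusted p = 0.0578). In WT it passed without replicate 1 (adjusted p = 0.0461) or 3 (0.0457) of wounded isi1-2.

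PSBS (AT1G44575), the sensor that triggers thermal dissipation of excess light, had 1342 to 1479 CPM in wounded isi1-2, 1539 to 1681 in unwounded isi1-2, 1463 to 1516 in wounded WT and 1720 to 1761 in unwounded WT. It was lower in isi1-2 (log2 fold change -0.19, SE 0.06, adjusted p = 0.0102; -0.17 and 0.0519 without replicate 2 of unwounded isi1-2) and in WT (-0.23, SE 0.06, adjusted p = 0.00322). PSBP1 (AT1G06680), an extrinsic protein of the oxygen-evolving complex, had 5249 to 5693 CPM in wounded isi1-2, 5864 to 6075 in unwounded isi1-2, 5135 to 5668 in wounded WT and 5698 to 5936 in unwounded WT. It was called in isi1-2 (-0.14, SE 0.05, adjusted p = 0.0477) and not in WT (-0.09, SE 0.05, adjusted p = 0.18). The call of PSBP1 was lost without any one of 10 of the 12 libraries, the exceptions being replicate 1 of wounded isi1-2 and replicate 2 of wounded WT (adjusted p = 0.0531 to 0.153). PSBR, PSBW and PSBX, small subunits of photosystem II, were not called in either genotype, with log2 fold changes of -0.19 to 0.08, though PSBR was called lower in WT (-0.19) without replicate 3 of wounded isi1-2 (adjusted p = 0.0367) or of unwounded isi1-2 (0.0436).

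The 2 copies of PSBQ, also an extrinsic protein, differed. PSBQ1 (AT4G21280) had 1509, 1426 and 1487 CPM in wounded isi1-2, 1772, 1655 and 1690 in unwounded isi1-2, 1521, 1446 and 1458 in wounded WT, and 1515, 1571 and 1572 in unwounded WT. It was lower in isi1-2, where the libraries did not overlap (log2 fold change -0.21, SE 0.05, adjusted p = 0.00307), and had a value of -0.07 in WT (SE 0.05, adjusted p = 0.267). PSBQ2 (AT4G05180) had 2950, 2655 and 2843 CPM in wounded isi1-2, 3108, 2888 and 2818 in unwounded isi1-2, 3347, 2736 and 3079 in wounded WT, and 2787, 2735 and 2786 in unwounded WT. Its libraries overlapped in both genotypes and it was not called (isi1-2: -0.06, SE 0.07, adjusted p = 0.49; WT: 0.14, SE 0.07, adjusted p = 0.111). Without replicate 2 of wounded WT, PSBQ2 was called higher after wounding in WT (0.21, adjusted p = 0.0174). PSBW (AT2G30570) had 1659, 1461 and 1680 CPM in wounded isi1-2, 1882, 1678 and 1603 in unwounded isi1-2, 1844, 1509 and 1643 in wounded WT, and 1619, 1546 and 1713 in unwounded WT, likewise with overlap.

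Summed over its members, each class took a smaller share of all gene counts after wounding. The 14 LHCB genes held 8.13, 7.26 and 7.19% of gene counts in wounded isi1-2, 10.1, 10.2 and 10.2% in unwounded isi1-2, 8.68, 7.85 and 8.06% in wounded WT, and 10.3, 10.7 and 10.8% in unwounded WT. The 42 genes together held 15.9, 14.5 and 14.5% in wounded isi1-2, 18.9, 18.9 and 19.1% in unwounded isi1-2, 16.7, 15 and 15.7% in wounded WT, and 19.2, 19.5 and 19.8% in unwounded WT. No wounded library reached the share of any unwounded one. Shares of PSA were 2.52 to 2.68% in wounded isi1-2, 2.93 to 2.97% in unwounded isi1-2, 2.43 to 2.71% in wounded WT and 2.96 to 3.05% in unwounded WT, also without overlap. Shares use total counts, whereas the fold changes above use TMM, whose factors were 0.9456 to 0.9871 in wounded isi1-2, 1.015 to 1.035 in unwounded isi1-2, 0.9806 to 0.984 in wounded WT and 1.026 to 1.045 in unwounded WT, so a gene with no fold change under TMM also takes a smaller share after wounding.

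Ratios between classes do not depend on that scaling. Summed LHCB counts over summed PSA counts gave 3.04, 2.87 and 2.86 in wounded isi1-2, 3.43, 3.48 and 3.44 in unwounded isi1-2, 3.2, 3.23 and 3.12 in wounded WT, and 3.49, 3.56 and 3.55 in unwounded WT. The ratio was lower in wounded than in unwounded libraries of both genotypes, and lower in isi1-2 than in WT in both treatments, without overlap in any of these 4 pairs. Summed LHCB counts over summed PSB counts gave 3.03, 2.84 and 2.78 in wounded isi1-2, 3.35, 3.37 and 3.3 in unwounded isi1-2, 3.14, 3.11 and 3 in wounded WT, and 3.43, 3.59 and 3.55 in unwounded WT. This ratio was likewise lower after wounding in both genotypes and lower in unwounded isi1-2 than in unwounded WT without overlap, but in wounded plants the genotypes overlapped. The ratio of PSA to PSB counts was 0.974 to 0.999 in wounded isi1-2, 0.962 to 0.977 in unwounded isi1-2, 0.961 to 0.981 in wounded WT and 0.983 to 1.01 in unwounded WT. Wounded and unwounded libraries overlapped in this ratio in isi1-2, while in WT the wounded libraries were below the unwounded ones.

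**Figure D3:**
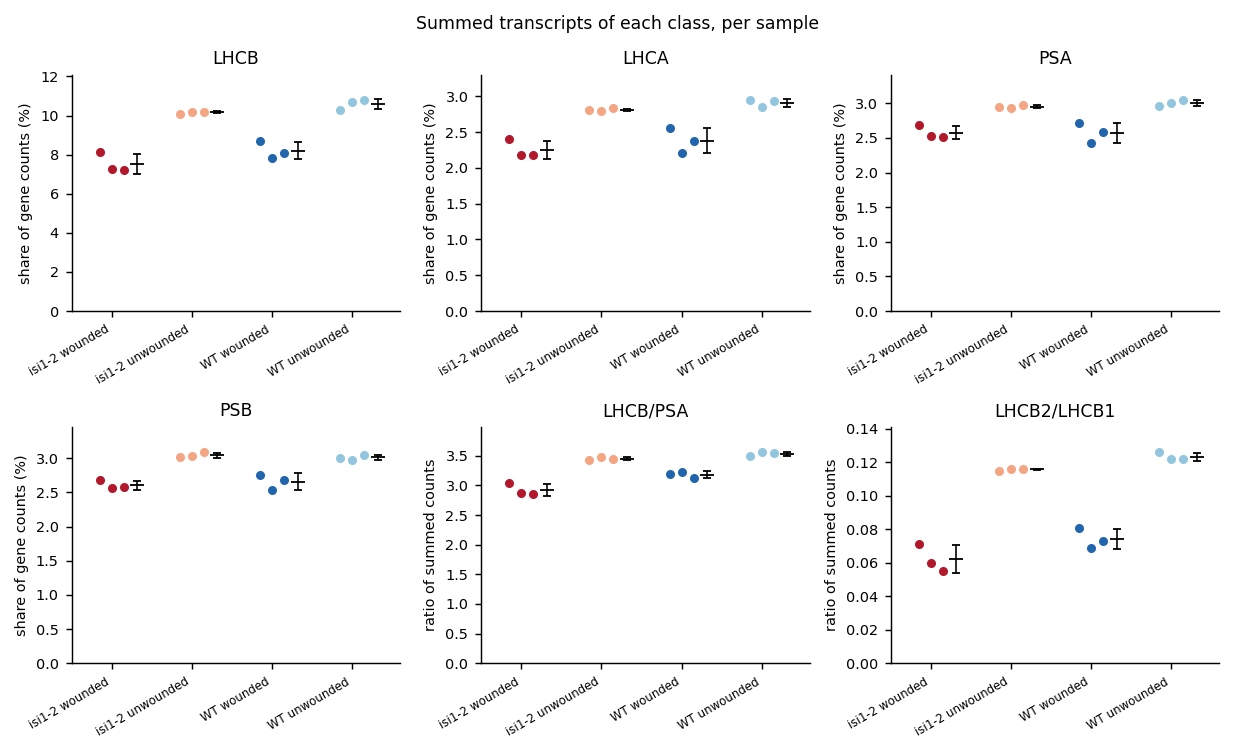
Share of all gene counts held by each class, in percent, and ratios of summed counts, in each of the 12 libraries (x axis: group; y axis from 0; points: replicates 1 to 3 from left to right; bars: mean and SD, n = 3). The LHCB share lies at 7.19 to 8.13% in wounded isi1-2, 10.1 to 10.2% in unwounded isi1-2, 7.85 to 8.68% in wounded WT and 10.3 to 10.8% in unwounded WT, and the LHCB2 to LHCB1 ratio at 0.0549 to 0.0713, 0.115 to 0.116, 0.0691 to 0.0809 and 0.122 to 0.126 in the same groups.

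Replicates within the wounded groups differed in a common way. Replicate 1 was the highest library for 39 of the 42 genes in wounded isi1-2, where it was the highest for 31.9% of all genes tested, and for 37 in wounded WT, against 38.6% of all genes. For the 20 antenna genes this was so for 20 in each wounded group. In the unwounded groups replicate 1 was the highest for 12 genes in isi1-2 and for 5 in WT. There it was the lowest library for 22 of the 42 genes in isi1-2 and for 29 in WT. In the wounded groups it was the lowest for 0 genes in isi1-2 and for 1 in WT. Shares over all genes were not computed for the unwounded groups. The labels do not say what replicate 1 of the wounded groups shares. Replicate 1 of both wounded groups was then left out, an alternative chosen after seeing the data. Over all genes, 9237 were then called on wounding in isi1-2 (4559 lower) and 8868 in WT (4385 lower). Of the 42 genes, 24 were called in isi1-2 and 28 in WT, all lower. The genes then called in addition were, in both genotypes, LHCB1.5 (isi1-2: log2 fold change -0.22, adjusted p = 0.0041; WT: -0.26, adjusted p = 0.00113), LHCB4.1 (isi1-2: -0.16, adjusted p = 0.0273; WT: -0.16, adjusted p = 0.0351) and LHCB4.3 (isi1-2: -0.34, adjusted p = 0.0179; WT: -0.42, adjusted p = 0.00526). In WT alone they were LHCA4, LHCB1.3, LHCB5, PSAH1, PSAL and PSBO1 (-0.23 to -0.14, adjusted p = 0.0116 to 0.0471), and PSAE2 was no longer called (0.12, adjusted p = 0.113). Single libraries decided these too: without replicate 1 of wounded isi1-2, LHCB1.5 (-0.22, adjusted p = 0.0184) and LHCB4.1 (-0.17, adjusted p = 0.0268) passed in isi1-2, and without replicate 1 of wounded WT, LHCB1.5 passed in WT (-0.26, adjusted p = 0.00821). In WT, LHCB1.5 (adjusted p = 0.033) and LHCB4.1 (0.043) also passed without replicate 1 of wounded isi1-2.

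Marker levels of other leaf tissues moved with wounding as well. The summed level of 3 epidermis markers was 171 to 205 CPM in wounded isi1-2, 330 to 392 in unwounded isi1-2, 184 to 208 in wounded WT and 322 to 368 in unwounded WT, with 2 of 3 called lower in isi1-2 and 3 of 3 in WT. That of 3 mesophyll markers, all of them photosynthesis genes themselves, was 23676 to 26729 CPM in wounded isi1-2, 28717 to 30930 in unwounded isi1-2, 22766 to 23897 in wounded WT and 26734 to 29578 in unwounded WT, with 2 of 3 called lower in isi1-2 and 3 of 3 in WT. The 3 guard cell markers summed to 65.8 to 74.2 CPM in wounded isi1-2, 68.6 to 87.6 in unwounded isi1-2, 68.3 to 83 in wounded WT and 88.6 to 89.5 in unwounded WT, with MYB60 the 1 of 3 called lower in each genotype (isi1-2: log2 fold change -0.47, SE 0.11, adjusted p = 0.00164; WT: -0.61, SE 0.11, adjusted p = 0.000173). The trichome marker GL2 had 1.35 to 2.06 CPM in wounded isi1-2, 2.04 to 2.28 in unwounded isi1-2, 1.5 to 1.92 in wounded WT and 2.85 to 3.16 in unwounded WT, and was called lower in WT (-0.85, SE 0.19, adjusted p = 0.00138). The summed levels of 2 phloem and of 2 xylem markers overlapped between wounded and unwounded libraries. Of these 4 genes the phloem marker APL was called lower in WT (-0.21, SE 0.08, adjusted p = 0.0342), with -0.04 in isi1-2. The flower marker AG, at 0.133 to 1.89 CPM over all libraries, was also called lower (isi1-2: -1.40, SE 0.42, adjusted p = 0.0106; WT: -1.29, SE 0.47, adjusted p = 0.0342). The part of these cell types in the results was not tested.

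Between genotypes, 0 of the 42 genes were called in wounded plants, where 2.39% of all genes tested were called, and 0 in unwounded plants, where 0.128% were. DESeq2 likewise called 0 of the 42 in each. The wound marker JAZ10, outside the 42 genes, had 426, 394 and 426 CPM in wounded isi1-2. It had 234, 347 and 290 CPM in wounded WT, without overlap. In edgeR, JAZ10 was called higher in wounded isi1-2 than in wounded WT (log2 fold change 0.52, SE 0.11, adjusted p = 0.0246). Its interaction term was not called (0.54, SE 0.29, adjusted p = 0.544). The part of this difference in the genotype comparisons of the 42 genes was not tested. At an unadjusted p under 0.05, 8 of the 42 passed in wounded plants, against 16.6% of all genes, and 3 in unwounded plants, against 9.13%. The isi1-2 libraries did not overlap those of WT for 2 genes lower and 2 higher in wounded plants, against 10.3% and 9.87% of all genes, and for 7 lower and 5 higher in unwounded plants, against 8.21% and 8.31%. In wounded plants the lowest adjusted p was that of LHCB1.2 (isi1-2 over WT: log2 fold change -0.21, SE 0.07, adjusted p = 0.114), followed by LHCB2.2 (-0.32, SE 0.10, adjusted p = 0.136) and LHCB1.1 (-0.25, SE 0.09, adjusted p = 0.179). This result turned on 1 library: without replicate 1 of wounded isi1-2, 5 genes were called lower in wounded isi1-2 than in wounded WT, namely LHCB2.2 (adjusted p = 0.00418), LHCB2.1 (0.0154), LHCB1.2 (0.0259), LHCB1.1 (0.0275) and LHCB4.2 (0.0477). Without replicate 1 of both wounded groups 4 were called, which were LHCB2.2 (-0.40, adjusted p = 0.00215), LHCB2.1 (-0.40, adjusted p = 0.00223), LHCB1.1 (-0.34, adjusted p = 0.0242) and LHCB1.2 (-0.24, adjusted p = 0.0341). Calls over all genes rose as well in that fit, to 828 (375 lower) from 446 (185 lower) with all libraries. Over the fits with 1 library left out they ranged from 104 to 940, so the 2.39% above is not the background of these counts.

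The interaction, which sets the response to wounding in isi1-2 against the response in WT, was called for 0 of the 42 genes and for 0.0321% of all genes tested. At an unadjusted p under 0.05, LHCB3 and LHCA2 passed, which is 2 of 42 against 10.5% of all genes, and DESeq2 called 0. Estimates for the LHCB2 copies were -0.26 for LHCB2.1 (SE 0.21), -0.19 for LHCB2.2 (SE 0.15) and 0.09 for LHCB2.3 (SE 0.26), each smaller than 2 SE. Whether the response differs between the genotypes was therefore not resolved at this number of replicates.

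Genes that supply the antenna with chlorophyll b, deliver its proteins or set its transcription were examined as a list of 11. In isi1-2, 6 (54.5%) were called lower and 1 higher after wounding, and in WT 5 (45.5%) were lower and 1 higher. Of all genes tested, 25.7% in isi1-2 and 23% in WT were called lower. GLK2 (AT5G44190), a transcription factor of chloroplast development, had 35.9, 26.4 and 23.6 CPM in wounded isi1-2, 102, 118 and 127 in unwounded isi1-2, 49.7, 29.7 and 26.7 in wounded WT, and 130, 114 and 120 in unwounded WT. All wounded libraries were well below the unwounded ones, with replicate 1 again the highest wounded library. It was 4.04-fold lower in isi1-2 (log2 fold change -2.01, SE 0.24, adjusted p = 7.01e-05) and 3.43-fold lower in WT (-1.78, SE 0.23, adjusted p = 0.000173). Its relative GLK1 (AT2G20570) was lower in isi1-2 (-0.80, SE 0.14, adjusted p = 0.000737) and in WT (-0.72, SE 0.14, adjusted p = 0.00167). Of the 11 genes with CCAATC upstream, 6 were lower in both genotypes, and of the 31 without it 11 were. Among all genes tested, 19% were lower in both. With and without the I-box the counts were 6 of 9 and 11 of 33. They were 3 of 8 and 14 of 34 for the G-box, and 2 of 5 and 15 of 37 for the CCA1-type element. The CCAATC matches lay mostly in antenna genes (7 LHCB and 3 LHCA). Of the 20 antenna genes, 11 were lower in both genotypes. A link between motif and response was not tested.

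CH1 (AT1G44446), the chlorophyllide a oxygenase that makes chlorophyll b, had 90.3, 73.7 and 69.3 CPM in wounded isi1-2, 262, 270 and 237 in unwounded isi1-2, 129, 108 and 115 in wounded WT, and 292, 295 and 306 in unwounded WT. No library of one group overlapped another group. It was 3.29-fold lower after wounding in isi1-2 (log2 fold change -1.72, SE 0.09, adjusted p = 3.79e-10) and 2.53-fold lower in WT (-1.34, SE 0.09, adjusted p = 8.16e-09). It was the only gene of this list called between genotypes, lower in wounded isi1-2 than in wounded WT (-0.59, SE 0.09, adjusted p = 0.00375), while the interaction was not called (-0.38, adjusted p = 0.29).

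The chloroplast signal recognition particle subunit cpSRP43 (AT2G47450), which chaperones antenna proteins to the thylakoid, had 202, 164 and 159 CPM in wounded isi1-2, 325, 367 and 360 in unwounded isi1-2, 206, 200 and 220 in wounded WT, and 395, 404 and 376 in unwounded WT. It was 2-fold lower after wounding in isi1-2 (adjusted p = 4.17e-08) and 1.88-fold lower in WT (log2 fold change -0.91, SE 0.08, adjusted p = 1.59e-07). Its partners in the same route, CPSRP54, CPFTSY and the insertase ALB3, were called in neither genotype, with log2 fold changes of -0.19 to 0.03. GDC1 (AT1G50900), also of this list, was called lower in isi1-2 (-0.16, SE 0.06, adjusted p = 0.0269) and not in WT (-0.10, SE 0.06, adjusted p = 0.166). The kinase STN7, which phosphorylates the mobile antenna, was lower (isi1-2: -0.30, SE 0.07, adjusted p = 0.00291; WT: -0.22, SE 0.07, adjusted p = 0.0254). TAP38, the phosphatase that acts against it, had 276, 249 and 276 CPM in wounded isi1-2, 221, 211 and 210 in unwounded isi1-2, 256, 235 and 251 in wounded WT, and 220, 189 and 206 in unwounded WT, and was higher after wounding (isi1-2: 0.32, SE 0.07, adjusted p = 0.000672; WT: 0.27, SE 0.07, adjusted p = 0.00304).

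**Figure D4:**
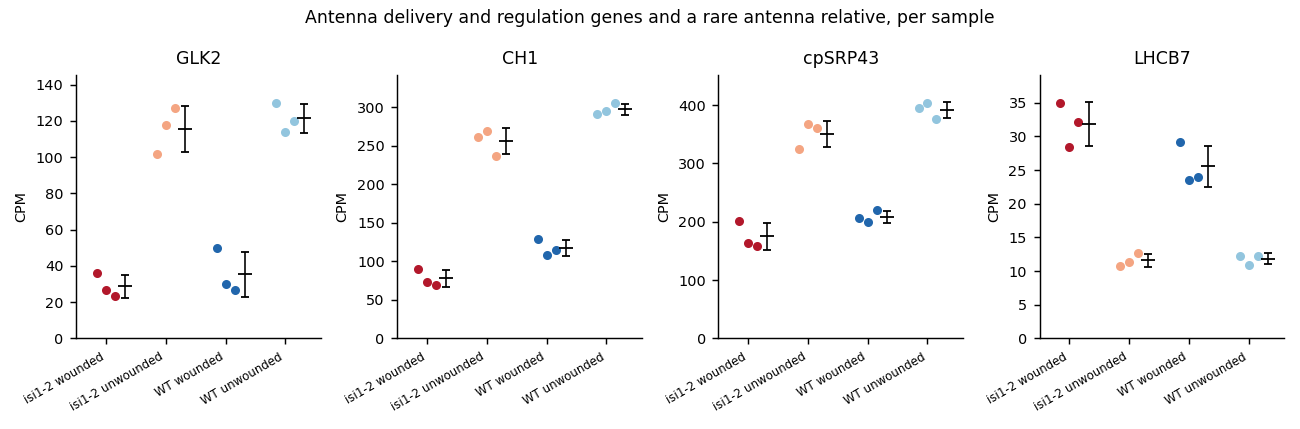
TMM-scaled CPM of GLK2, CH1, cpSRP43 and LHCB7 in each of the 12 libraries (x axis: group; y axis: CPM from 0; points: replicates 1 to 3 from left to right; bars: mean and SD, n = 3). GLK2, CH1 and cpSRP43 lie lower in wounded than in unwounded libraries of both genotypes, and LHCB7 lies higher.

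Relatives of the antenna outside the 42 genes included 1 that moved the other way. LHCB7 (AT1G76570), a rare chlorophyll-binding protein of the family, had 35, 28.5 and 32.1 CPM in wounded isi1-2, 10.8, 11.3 and 12.7 in unwounded isi1-2, 29.1, 23.5 and 24 in wounded WT, and 12.3, 10.9 and 12.3 in unwounded WT. It was higher after wounding in isi1-2 (log2 fold change 1.46, SE 0.10, adjusted p = 8.66e-09) and in WT (1.11, SE 0.10, adjusted p = 2.93e-07), at levels far under those of most LHCB genes. Of the 7 relatives tested among 8 listed, 3 (42.9%) were called lower and 1 higher in isi1-2, and 1 (14.3%) lower and 1 higher in WT. The shares of all genes called lower were 25.7% in isi1-2 and 23% in WT. ELIP1, a light-stress relative, was under 1 CPM in every library, and was lower after wounding in isi1-2 (log2 fold change -3.35, SE 0.52, adjusted p = 5.15e-05) and in WT (-1.61, SE 0.47, adjusted p = 0.00955).

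Other photosynthesis genes served as a comparison for the share of calls. Of 18 genes of Rubisco and the Calvin cycle, 10 (55.6%) were called lower in isi1-2, and 9 (50%) lower and 1 higher in WT. These shares were above those of the 42 genes (50% in isi1-2 and 45.2% in WT) and below those of LHCB (71.4% and 64.3%). Of all genes tested, 25.7% in isi1-2 and 23% in WT were called lower. RBCS1B, a small subunit of Rubisco, had 917, 975 and 1095 CPM in wounded isi1-2, 1905, 1820 and 1754 in unwounded isi1-2, 1040, 1028 and 1027 in wounded WT, and 1346, 1648 and 1437 in unwounded WT, with no overlap between wounded and unwounded libraries. Its log2 fold change was -0.88 in isi1-2 (SE 0.08, adjusted p = 1.01e-07) and -0.52 in WT (SE 0.08, adjusted p = 3.83e-05). FBA1, an aldolase, had values of -0.81 in isi1-2 (SE 0.06, adjusted p = 1.76e-08) and -0.59 in WT (SE 0.06, adjusted p = 8.56e-07), and AT3G60750 was the gene called higher, in WT (0.17, SE 0.06, adjusted p = 0.0216), with 0.07 in isi1-2 (SE 0.06, adjusted p = 0.282).

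Of 8 electron carriers, 1 (12.5%) was lower in isi1-2, and 2 (25%) were lower and 1 higher in WT. The ferredoxin FD1 was lower in both (isi1-2: -0.52, SE 0.06, adjusted p = 3.11e-06; WT: -0.46, SE 0.06, adjusted p = 1.2e-05). FNR2, a ferredoxin-NADP reductase, was higher in WT (0.28, SE 0.05, adjusted p = 0.000341), with 0.03 in isi1-2 (SE 0.05, adjusted p = 0.677). Of 3 nuclear subunits of the ATP synthase, 2 (66.7%) were lower in isi1-2 and 1 (33.3%) in WT. ATPD was lower in both (isi1-2: -0.45, SE 0.07, adjusted p = 3.56e-05; WT: -0.32, SE 0.07, adjusted p = 0.000874), and PDE334 was called in neither (0.08 in isi1-2 and 0.07 in WT, SE 0.05 each). Plastid transcripts of photosystem subunits, of which 9 of 10 listed were tested, gave 0 calls by edgeR in either genotype and 0 at an unadjusted p under 0.05, in libraries selected for poly-A RNA.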

How the data were processed

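Leaf 13 RNA from 12 samples (4 groups of 3 replicates) was made into stranded poly-A libraries and sequenced as single-end reads for 150 cycles, per the labels' protocols. The authors deposited raw counts per gene for each sample, with no normalization. The submitters' processing notes name cutadapt 1.8, STAR 2.5.3a, HTSeq 0.9.1 and the build TAIR10. The use of strand in counting is not given in the sources used here. Of the 42 genes, 16 overlap a gene on the opposite strand, and reads of such pairs could be mixed if strand was not used. Reads with more than 1 alignment (4.19 to 4.46% per library), outside genes (0.652 to 0.95%) or ambiguous (0.096 to 0.117%) were left out of library sizes and tests.

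From these counts, edgeR 4.0.16 (R 4.3.3) was run with filterByExpr (minimum count 10, minimum total 15), TMM scaling and a robust quasi-likelihood fit to all 12 samples with 1 coefficient per group. P-values were adjusted by Benjamini-Hochberg over 18698 genes. The SE of a log2 fold change is its absolute value over the root of its F statistic. The biological coefficient of variation was 8.85%. On simulated counts for wounding in isi1-2, with 200 of 18281 genes changed, 89% of 1.5-fold and 100% of 2-fold changes were recovered, with 14 false calls. Alternatives were RLE scaling, total counts, DESeq2 1.42.0, no filter, a fit of only the groups compared, a replicate block, each library left out and a threshold of 0.01. The labels call the replicates biological, and p-values measure the spread between these pools of 2 plants.

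The 42 genes, the other gene lists and the genes named were chosen with earlier results of these data known. Values in every sample are given, in each class, for the 2 members with the most positive and the 2 with the most negative mean response to wounding and for all copies of duplicated genes. From the other lists the genes with the most positive and the most negative mean response are named, except for the plastid genes, which are given only as a count. CH1, cpSRP43 and its partners, GDC1, GLK1, STN7, FBA1 and the per-sample values of LHCB3 were added after their values were seen. The markers MYB60, GL2, APL and AG are named because they were called. Gene names, exon lengths and upstream sequences come from RefSeq TAIR10.1, which matched 32548 of 34262 identifiers and 42 of 42 members.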

Additional observations from a re-analysis of the deposited data

How the results depend on the processing

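Directions held: no value of the 42 genes past the threshold changed sign under any alternative run. On wounding, 20 to 31 of the 42 genes were called in isi1-2 and 19 to 33 in WT over the settings other than the threshold of 0.01 and left-out libraries, with 33 in WT (0 higher) when libraries were scaled by total counts only. Over the same settings, calls over all genes numbered 9224 to 9799 in isi1-2 and 8127 to 9079 in WT. Total counts alone also raised the calls of lower levels over all genes, from 4813 to 6014 in isi1-2 and from 4304 to 5414 in WT. Under that scaling the medians were -0.26 (isi1-2) and -0.24 (WT) for LHCA, and in isi1-2 -0.17 for PSA and -0.25 for PSB, with the median of all genes moved by -0.09 in isi1-2. Between genotypes 1 gene was called in wounded plants under total counts, and 1, LHCB2.3, in unwounded plants when only those groups were fitted (-0.41, adjusted p = 0.0101). Over all genes, calls between genotypes in wounded plants numbered 446, against 718 with DESeq2, 142 with only the groups compared, 703 with a replicate block and 100 at an adjusted p under 0.01. In unwounded plants they numbered 24, against 91, 81, 66 and 9 under the same settings and 38 with no filter. For the interaction they numbered 6, against 146 with DESeq2, 75 with the block, 0 at 0.01 and 29 with no filter. The cause was not tested.

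With libraries left out, members called between genotypes in wounded plants ranged from 0 to 5, and calls over all genes from 104 to 940 between genotypes in wounded plants, 6 to 48 in unwounded plants and 0 to 245 for the interaction. The LHCB median in WT ranged from -0.44 to -0.28. Without replicate 1 of both wounded groups, members called between genotypes in wounded plants numbered 4, calls over all genes 828, 77 and 249 in that order of comparisons, and the LHCB median in WT was -0.44.

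Replicate numbers are shared between groups. Over genes, the deviations of same-numbered samples from their group means had correlations of -0.03 to 0.185, and in none of the 4 comparisons of groups were all 3 over 0.1, so the numbers were not taken to pair the samples. Replicate 2 did correlate best with its own number in each of the 4 comparisons (0.0538 to 0.185), and replicate 1 did so between treatments in WT (0.0817). In the wounded groups replicates 1 and 2 both correlated best with their own number (0.167 and 0.161), and replicate 3 did not (-0.0147). Replicate 1 was the highest library for most of the 42 genes in both wounded groups. With the replicate block, 21 members were called on wounding in isi1-2, 21 in WT, and 0 between genotypes or for the interaction. With 3 pools per group, differences of the size of the genotype estimates for LHCB are at the limit of what these data resolve.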
